A study of Mus musculus with 90 samples.

Results

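The collagen family was taken as every gene whose symbol is Col, a number, the letter a and a number, and that has a probe set naming that symbol alone. This gave 42 of the 18194 genes measured on the arrays, out of 44 collagen genes that RefSeq lists under such symbols. Col6a6 and Col28a1 are not analysed here. Of the 82 probe sets for these genes, the brightest on average over all 90 arrays stood for each gene, and 27 members had more than 1 to choose from. The family was divided into 9 fibrillar members (types 1, 2, 3, 5 and 11), 8 basement membrane members (types 4, 15 and 18) and 25 members of other types.

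The arrays measured RNA from whole subcutaneous melanoma allografts from mice of strain B6.cBrd, all labelled with the genotype Hgftg;Cdk4R24C/R24C, so that these alleles were shared by every group, controls included. Mice received an anti-PD-L1 antibody (clone 80, in the mouse IgG1 D265A format), a control IgG (NIP228, in the same format) or PBS, the vehicle. The sample labels give 10 mg/kg for each antibody and 10 ml/kg for PBS, and the text of the series also names 20 mg/kg. Study 2 had 3 PBS, 14 IgG, 14 non-responder, 17 responder, 3 relapse and 2 growth delay tumours. Study 3 had 4 PBS, 8 IgG, 9 non-responder, 10 responder, 3 relapse and 3 stabilization tumours. Responders had lost at least 5% of their volume under anti-PD-L1 and were taken after 2 to 12 doses, and non-responders had gone on growing and were taken at like times. Relapse tumours had become too small to measure and then came back after 4 to 10 doses, stabilization tumours held their volume from one measurement to the next, and growth delay tumours appeared only once treatment had begun. The host mice kept their own stroma, vessels and immune cells, so the RNA is a mixture of tumour and host transcripts. In such bulk RNA, fewer cells of a type and less RNA per cell cannot be told apart. Each tumour had its own animal number, so the spread between tumours is what p-values measure. In both studies the 3 treatments had separate blocks of animal numbers, which lay far apart in study 3. The labels do not say whether these blocks were separate cohorts. If they were, treatment and cohort could not be told apart in comparisons with controls.

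Collagens are triple-helical proteins of the extracellular matrix. Fibrillar collagens are secreted mainly by fibroblasts and assemble into the tensile fibres of skin and tumour stroma, type 4 collagens form the sheet-like network of basement membranes under epithelia and around vessels and muscle fibres, and type 6 collagens form beaded filaments in the matrix between cells and fibrils. FACIT collagens attach to the surface of fibrils, type 7 anchors the epidermis to the dermis, and a few members, such as type 17 of the hemidesmosome, span the cell membrane.

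Values are on the log2 scale, from 2.19 to 14.8 over all arrays, with array medians from 5.71 to 5.90. No pair of arrays was identical. A probe set was called dim where its mean over all arrays was below 5.82, the median of all probe sets, and 24 collagens were at or above that level and 18 below it. Among all genes, 63.9% were at or above it. The tissue label was checked with melanocyte markers, of which 8 of 10 were at or above that level (Tyr and Oca2 were below), while 0 of 5 keratinocyte markers reached it. The mean of the 10 melanocyte markers was between 9.29 and 10.5 in 85 tumours and lower in the other 5. It was 8.28 in study 2 non-responder replicate 14, 6.70 in study 3 responder replicate 3 and 6.65 in study 3 responder replicate 4. Stabilization replicates 1 and 2 had 6.90 and 8.84. In responder replicate 4 and stabilization replicate 2 the skeletal muscle markers averaged 13.6 and 11.9, beside fibroblast marker means of 11.5 and 10.6. Study 2 non-responder replicate 14 and study 3 responder replicate 3 had B cell marker means of 11.5 and 11.6, where the other 88 tumours had at most 8.54, and adipocyte marker means of 9.79 and 11.4. Results that rest on these 5 tumours are given with and without them. Study 3 PBS replicate 2 had 3 prime control probe sets 5.20 above the 5 prime ones on the log2 scale, where every other array had at most 0.935.

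Regressing and growing tumours, all given anti-PD-L1, were compared first. Responder tumours had higher levels of 15 collagens and lower levels of 9, and 18 did not pass limma's test at an adjusted p of 0.05. Over all genes tested, 18.9% passed as higher and 32.3% as lower in the same comparison. The members that rose included 6 of the 9 fibrillar, 4 of the 8 basement membrane and 3 of the 5 beaded filament members, and the median difference on the log2 scale was 0.08 over the family against -0.06 over all genes. When each array was centred on the median of its 18194 genes, the median of all genes in the study 3 comparison moved from -0.08 to -0.18. The split of the family over both studies was then 13 higher and 19 lower, beside 12.4% and 51.6% of all genes. Centred on the median of all probe sets, the split was 15 and 8, beside 18.8% and 32.3% of all genes. No named collagen changed direction under either centring.

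The main fibrillar collagen, type 1, is a trimer of Col1a1 and Col1a2 chains. In study 2, Col1a1 had a lowest, median and highest log2 value of 6.12, 8.48 and 11.7 in non-responders and of 7.21, 9.88 and 13.2 in responders. The study 3 values were 7.25, 9.16 and 9.82 in non-responders and 8.90, 10.4 and 13.2 in responders. The groups overlapped in both studies, and the median non-responder lay below the median responder in each. Averaged over the studies, Col1a1 was higher in responders by 1.47 ± 0.39 (SE) on the log2 scale, a 2.76-fold difference (limma, adjusted p = 0.00242). Its partner chain Col1a2 was higher by 1.31 ± 0.35, or 2.48-fold (adjusted p = 0.00271).

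The other fibrillar members above the dim level moved the same way. Col3a1, the chain of the collagen that forms fine reticular fibres, was higher by 0.95 ± 0.33 (adjusted p = 0.0147). Its lowest, median and highest values were 6.92, 11.1 and 13.8 in study 2 non-responders and 8.92, 12.2 and 14.4 in study 2 responders. The study 3 values were 10.8, 12.7 and 13.2 in non-responders and 12.3, 13.3 and 14.3 in responders, so the upper non-responders lay among the responders. The 3 chains of type 5, which sits in the core of type 1 fibrils and limits their width, were higher by 0.97 ± 0.24 (Col5a1, adjusted p = 0.00113), 0.80 ± 0.26 (Col5a2, adjusted p = 0.0111) and 1.09 ± 0.32 (Col5a3, adjusted p = 0.00461). The 3 fibrillar members typical of cartilage were dim and did not pass, with differences of -0.05 for Col2a1, -0.02 for Col11a1 and -0.08 for Col11a2. The median over all 9 fibrillar members was 0.95.

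**Figure D1:**
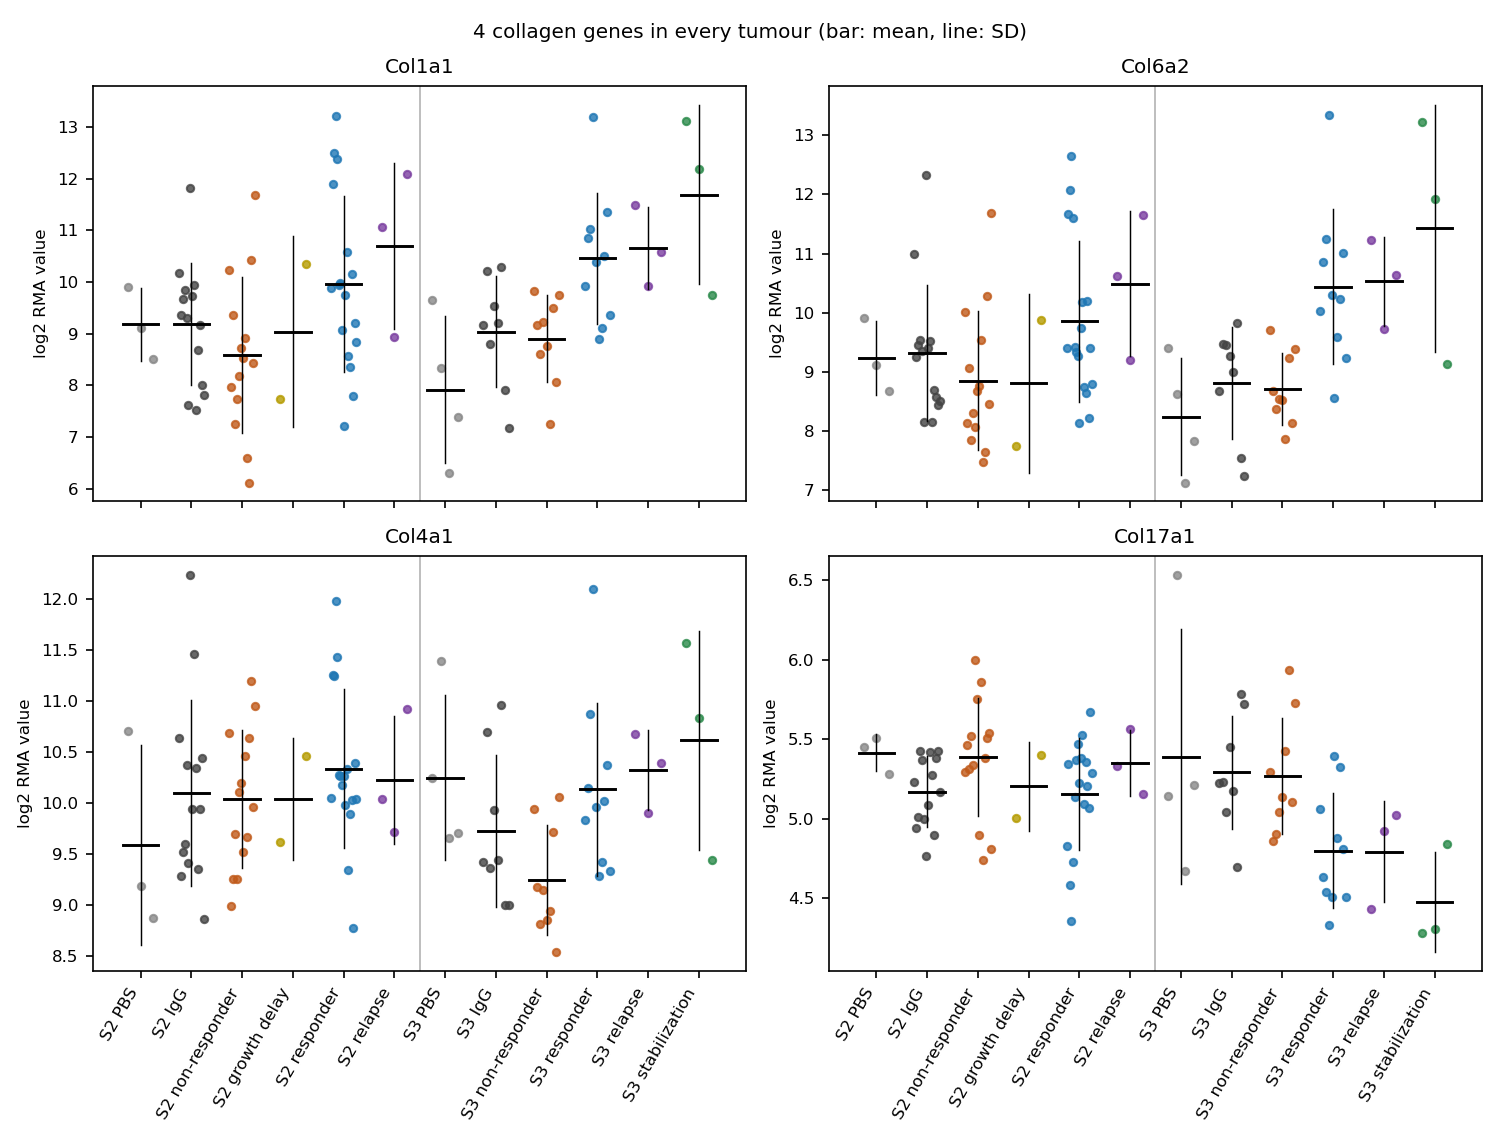
Log2 RMA value of each tumour (points, by group) for Col1a1, Col6a2, Col4a1 and Col17a1 in studies 2 and 3 (S2 and S3), with the group mean (bar) and SD (line). Col1a1 and Col6a2 are higher in responder than in non-responder tumours on average, with overlap in both studies, and study 3 responder replicate 4 has the highest value of its group for Col1a1, Col6a2 and Col4a1.

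The promoters of 3 risen members and of 1 that fell are shown so that the start-proximal sequence of members that moved together can be read side by side. Each is the 250 bases before the annotated start in RefSeq (mouse build GRCm38.p6), written 5′ to 3′ on the gene's strand, with capitals marking the motifs searched for. These were CCAAT (which reads ATTGG on the other strand), GGGCGG (which reads CCGCCC there) and TATAAA (which reads TTTATA there). The windows are chr6:4505368-4505617 on the plus strand for Col1a2, chr1:45311288-45311537 on the plus strand for Col3a1, chr10:76726045-76726294 on the minus strand for Col6a1 and chr19:47692043-47692292 on the minus strand for Col17a1.
Col1a2: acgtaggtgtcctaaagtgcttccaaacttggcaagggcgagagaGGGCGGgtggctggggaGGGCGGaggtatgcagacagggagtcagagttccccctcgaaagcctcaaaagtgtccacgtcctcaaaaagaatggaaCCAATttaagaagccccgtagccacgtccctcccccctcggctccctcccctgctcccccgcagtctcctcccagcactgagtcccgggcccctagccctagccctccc
Col3a1: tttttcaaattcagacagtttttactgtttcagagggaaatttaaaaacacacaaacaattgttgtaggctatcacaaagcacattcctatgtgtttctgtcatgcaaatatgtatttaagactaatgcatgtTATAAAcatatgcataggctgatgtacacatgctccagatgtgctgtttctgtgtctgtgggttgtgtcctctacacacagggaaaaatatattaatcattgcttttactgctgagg
Col6a1: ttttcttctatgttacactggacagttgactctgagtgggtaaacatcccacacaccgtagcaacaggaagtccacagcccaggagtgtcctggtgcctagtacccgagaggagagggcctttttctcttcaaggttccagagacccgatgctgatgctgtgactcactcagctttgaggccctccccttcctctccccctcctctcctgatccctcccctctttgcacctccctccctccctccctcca
Col17a1: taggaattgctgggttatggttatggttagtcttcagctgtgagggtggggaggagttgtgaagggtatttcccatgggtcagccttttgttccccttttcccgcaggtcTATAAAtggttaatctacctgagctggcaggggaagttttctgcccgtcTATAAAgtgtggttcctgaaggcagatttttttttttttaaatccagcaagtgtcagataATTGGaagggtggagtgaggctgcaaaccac
Counting the base just before the start as -1, the Col1a2 window holds GGGCGG from -205 and -188 and CCAAT from -109. The Col3a1 window has only TATAAA, from -117, and that of Col6a1 has none of the 3 motifs. The Col17a1 window has TATAAA from -140 and -91 and ATTGG from -31. RefSeq windows matched 33 of the 42 members, with 36 windows in all. Of these 36, CCAAT was found on either strand in 13 (36.1%, against 33.8% of all 32851 windows), GGGCGG in 21 (58.3%, against 32.7%) and TATAAA in 5 (13.9%, against 12.4%). The share of G and C bases was not matched between the 36 windows and all windows, whose median was 52.4%. These are letter matches in these windows and no measure of binding.

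Type 6 collagen, built from 3 chains into beaded filaments near the cell surface, showed differences of the same size. Col6a2 had lowest, median and highest values of 7.47, 8.57 and 11.7 in study 2 non-responders and of 8.14, 9.41 and 12.6 in responders. In study 3 they were 7.87, 8.54 and 9.71 in non-responders and 8.56, 10.3 and 13.3 in responders, again with overlap. Col6a2 was 2.57-fold higher in responders (1.36 ± 0.34, adjusted p = 0.00134, limma). Col6a1 was 2.53-fold higher (1.34 ± 0.33, adjusted p = 0.00117) and Col6a3, the largest of the 3 chains, 2.10-fold higher (1.07 ± 0.30, adjusted p = 0.00373). The dim members Col6a4 and Col6a5 had differences of -0.13 and -0.08 and did not pass.

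Within the basement membrane class the members split. Col4a1 and Col4a2, which form the type 4 trimer found in nearly all basement membranes, were higher by 0.59 ± 0.22 (adjusted p = 0.0227) and 0.70 ± 0.25 (adjusted p = 0.0177). Col4a1 values overlapped widely in study 2, with a lowest, median and highest of 8.99, 10.0 and 11.2 in non-responders and of 8.77, 10.3 and 12.0 in responders. In study 3 they were 8.54, 9.15 and 10.1 in non-responders and 9.29, 9.99 and 12.1 in responders. Col15a1 and Col18a1, the vessel-associated collagens whose carboxy-terminal fragments are restin and endostatin, were higher by 0.63 ± 0.21 (adjusted p = 0.0114) and 0.44 ± 0.18 (adjusted p = 0.0395). In contrast, the chains of the tissue-restricted type 4 trimers were lower or did not pass. Col4a5 was lower by 0.30 ± 0.13, or 1.23-fold (log2 difference -0.30, adjusted p = 0.0488), and the dim members Col4a4 and Col4a6 had differences of -0.24 (adjusted p = 0.00668) and -0.16 (adjusted p = 0.00742). The dim Col4a3 had a difference of -0.05 and did not pass.

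Among the other types, Col16a1, a fibril-associated member, was higher by 0.42 ± 0.13 (adjusted p = 0.00882) and the dim, membrane-spanning Col23a1 by 0.23 ± 0.08 (adjusted p = 0.0203). Members that fell did so by small amounts. The largest of these was Col17a1, the hemidesmosomal collagen, which was dim and had lowest, median and highest values of 4.74, 5.42 and 6.00 in study 2 non-responders and of 4.36, 5.22 and 5.67 in responders. In study 3 they were 4.86, 5.14 and 5.93 in non-responders and 4.33, 4.72 and 5.40 in responders. The groups overlapped, and Col17a1 was 1.28-fold lower in responders (-0.35 ± 0.10, adjusted p = 0.00509). The other falls were Col20a1 (-0.20, adjusted p = 0.00339), Col9a1 (-0.14, adjusted p = 0.0210), Col22a1 (-0.14, adjusted p = 0.0117), Col25a1 (-0.13, adjusted p = 0.0165) and Col13a1 (-0.14, adjusted p = 0.0482). Several members of stroma and skin did not pass: Col12a1, a FACIT collagen of stressed connective tissue, with a difference of 0.61 (adjusted p = 0.0938), Col14a1, its relative, with 0.06, the endothelial and smooth muscle network collagens Col8a1 and Col8a2 with 0.34 and 0.44, Col24a1 with 0.26 and the anchoring collagen Col7a1 with 0.13. The 6 further members that did not pass, Col9a2, Col9a3, Col10a1, Col19a1, Col26a1 and Col27a1, had differences between -0.14 and 0.11.

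**Figure D2:**
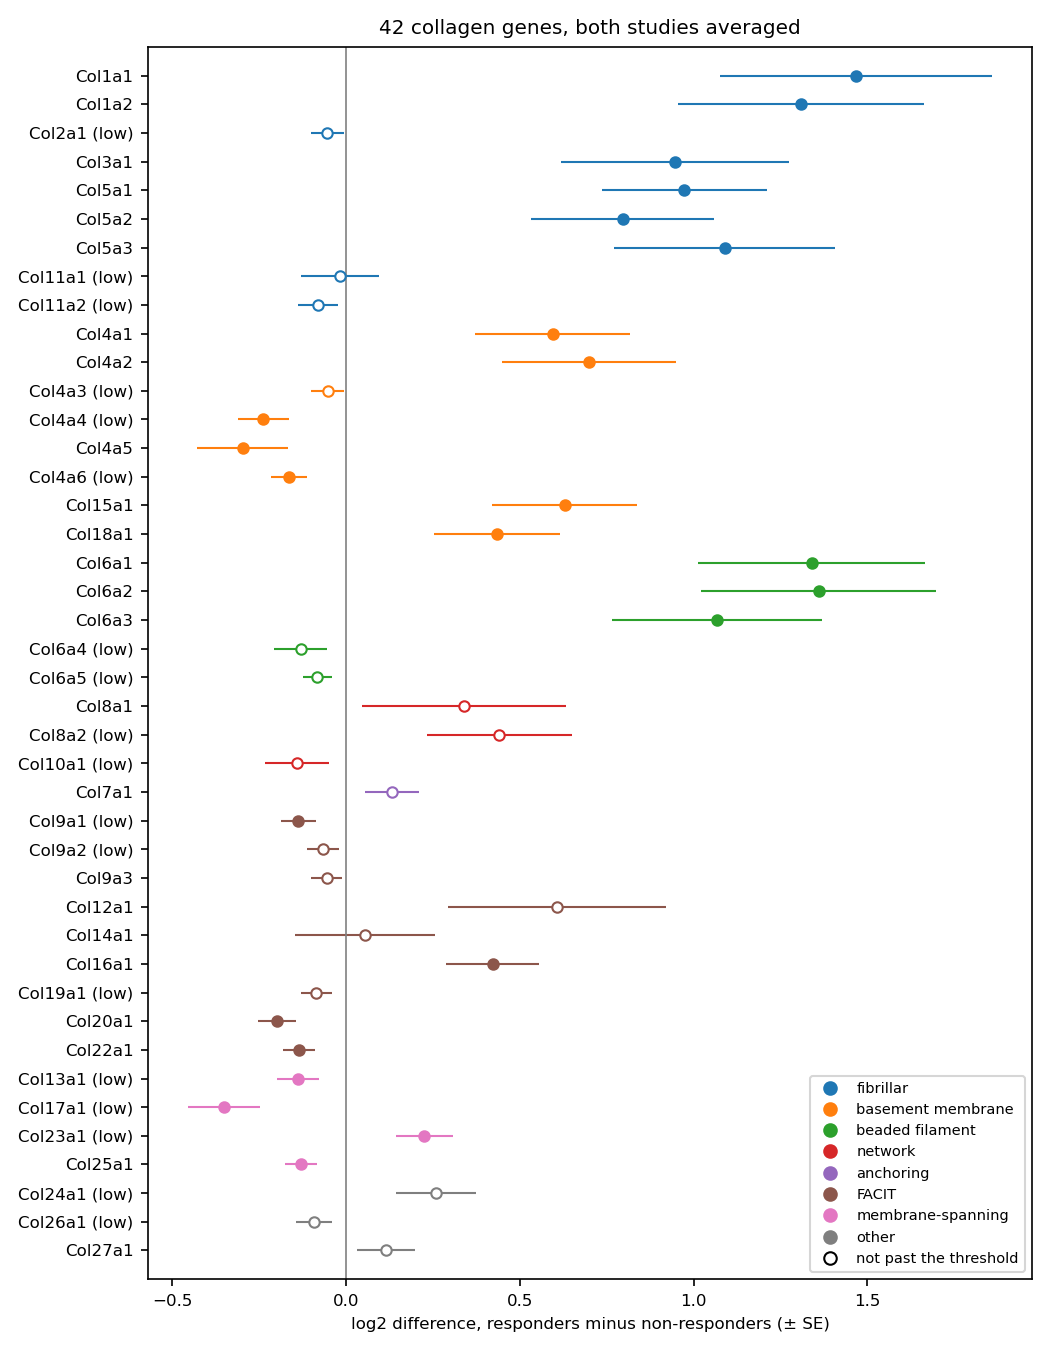
Log2 difference between responders and non-responders (x axis), averaged over both studies, with its SE (line), for the 42 collagens in order of class; filled points passed the threshold and dim members are marked low. The 6 fibrillar members that are not dim and 3 type 6 chains lie between 0.80 and 1.47, while Col4a5, Col4a4 and Col4a6 lie below 0.

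Other probe sets of the same genes were compared, since 1 probe set stood for each gene. In 22 of the 27 members with several, all probe sets had the same sign in this comparison, and among probe sets above the dim level this held for 13 of 13 members. For Col14a1, probe sets disagreed: one gave 0.48 and passed as higher, another gave -0.13 and passed as lower, and the one used gave 0.06. The second probe set of Col18a1 gave 0.52 and that of Col4a5 gave -0.45.

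The 5 tumours low in melanocyte markers bear on the weaker of these calls. Without them, 12 collagens were higher and 7 lower, with 17.2% of all genes higher and 30% lower. Col1a1 was then higher by 1.38 ± 0.38 and Col6a2 by 1.24, and both passed, while Col4a1 (0.46), Col4a2 (0.57) and Col18a1 (0.31) did not. Among the falls, Col17a1 passed in each of its 13 alternatives, this one included. The falls lost without the 5 tumours are not named here. Leaving out study 3 responder replicate 4 alone gave 0.49 for Col4a1 and 0.33 for Col18a1, and neither passed. Without study 3 responder replicate 3 alone, Col18a1 was higher by 0.40 and did not pass. Over 14 alternative settings or left-out tumours, Col1a1, Col1a2, Col5a1, Col5a3, Col6a1, Col6a2 and Col6a3 passed in each, with Col1a1 between 1.31 and 1.59.

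Both studies were then taken alone. In study 2, 0 collagens passed as higher and 0 as lower, where 0.616% of all genes passed as higher and 2.01% as lower. By limma, 14 collagens had an unadjusted p under 0.05 there, and the smallest adjusted p was 0.0615, for Col9a2. Without study 2 non-responder replicate 14, which had the highest collagen levels of its group (a mean of 11.6 over the 6 fibrillar members above the dim level), 7 collagens were higher and 1 lower, beside 6.4% and 9.39% of all genes. The part of this tumour's high B cell and adipocyte marker means in the result was not tested. In study 3, 11 collagens were higher and 5 lower, with 14.4% of all genes higher and 22.4% lower, and 11 collagens were higher and 15 lower with arrays centred on the median of the 18194 genes, beside 10.8% and 42.5% of all genes. Without the 5 tumours, 0 collagens were higher and 1 lower in study 3, beside 6.25% and 6.25% of all genes. In study 2, 10 were then higher and 3 lower, beside 9.93% and 15% of all genes. In study 3 the count was 7 without responder replicate 3 alone (9.74% and 13.2% of all genes higher and lower) and 7 without responder replicate 4 alone (9.44% and 13%).

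With all tumours kept, the sizes in the 2 studies were close for type 1 and further apart for type 4. The Col1a1 difference was 1.38 in study 2 and 1.56 in study 3, and that of Col1a2 was 1.22 and 1.39. The Col4a1 difference was 0.30 and 0.89, and the Col6a1 difference 0.99 and 1.69. Over the family, 21 members were higher in responders in both studies, 13 were lower in both and 8 had opposite signs. The difference between the studies was tested as an interaction, in which 0 collagens and 0% of all genes passed in either direction. By limma, 4 collagens and 2418 genes had an unadjusted p under 0.05 in that test. The smallest adjusted p among collagens was 0.321, for Col4a6, whose difference was lower in study 3 by 0.29 on the log2 scale (interaction -0.29). Next came Col23a1, with an interaction of 0.42 (adjusted p = 0.341).

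**Figure D3:**
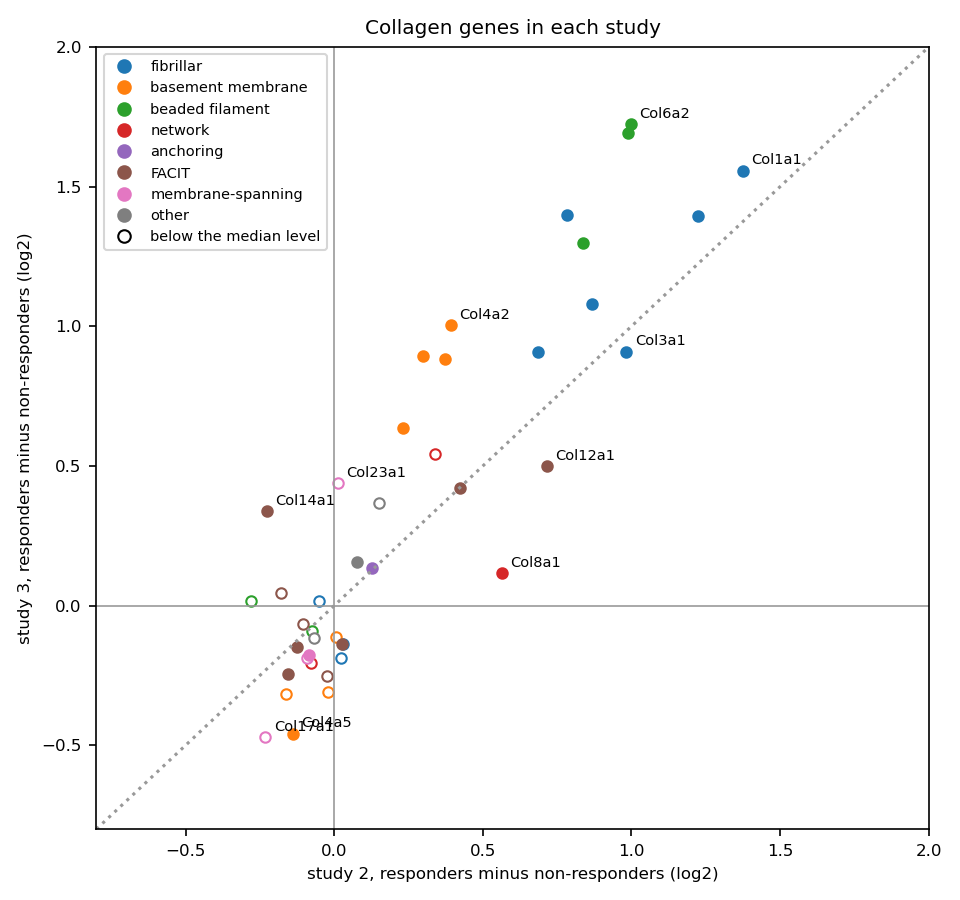
Log2 difference between responders and non-responders in study 2 (x axis) and in study 3 (y axis) for the 42 collagens, coloured by class, with open points for dim members and a dotted line of equality. All members of types 1, 3 and 5 and Col6a1, Col6a2 and Col6a3 lie to the upper right, 21 members are above 0 in both studies and 13 are below 0 in both.

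Genes that make, cut, cross-link or bind collagen were read from lists named by role. Of 19 measured genes for collagen synthesis, 9 were higher in responders and 1 lower. They included Mia3, which loads procollagen for export from the endoplasmic reticulum (0.39, adjusted p = 0.00221), Crtap, part of the prolyl 3-hydroxylase complex (0.37, adjusted p = 0.00319), and Colgalt1, which adds galactose to hydroxylysine (0.20, adjusted p = 0.00449). Ppib, the prolyl isomerase of the same complex, was lower (-0.16, adjusted p = 0.00191). Of 12 genes for processing and cross-linking, 6 were higher and 1 lower. Tgm2, the tissue transglutaminase, was 2.86-fold higher (1.51 ± 0.24, adjusted p = 2.4e-05), and the procollagen C-proteinase Bmp1 (0.46, adjusted p = 0.00496) and its enhancer Pcolce2 (0.89, adjusted p = 0.00285) were also higher. Tll2, a relative of Bmp1, was lower (-0.25, adjusted p = 0.000229).

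Of 16 fibril partners, 11 were higher and 0 lower, with a median of 0.72. The leucine-rich proteoglycans Prelp, Bgn and Lum, which coat fibrils, were higher by 0.82 (adjusted p = 0.000151), 1.15 (adjusted p = 0.00263) and 1.23 (adjusted p = 0.00524), and the matricellular protein gene Thbs2 by 0.70 (adjusted p = 0.00289). Of 13 basement membrane partners, 8 were higher and 1 lower, among them Nid1, which links laminin to type 4 collagen (0.99, adjusted p = 0.00289), the laminin chains Lamb1 (0.75, adjusted p = 0.00524) and Lamc1 (0.50, adjusted p = 0.00692), and Smoc2 (0.69, adjusted p = 0.0123). Of 10 collagen receptors, 5 were higher and 1 lower. The receptor tyrosine kinase Ddr2, which binds fibrillar collagen, was higher by 0.39 (adjusted p = 0.00454), the inhibitory leukocyte receptor Lair1 by 0.72 (adjusted p = 0.00458), the scavenger receptor Cd36 by 0.99 (adjusted p = 0.00799) and the collagen uptake receptor Mrc2 by 0.76 (adjusted p = 0.00828). The shares passing in either direction were between 52.6% and 69.2% in these lists, beside 51.2% of all genes and 57.1% of the collagens.

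Markers of the cells that make matrix moved in the same comparison. All 7 fibroblast markers were higher in responders, with a median of 1.21 and 7 of 7 still higher without the 5 tumours (median 1.14). The mean of the 7 ranged from 5.84 to 10.5 in study 2 non-responders and from 5.87 to 11.01 in study 2 responders. In study 3 it ranged from 6.88 to 8.73 in non-responders and from 8.12 to 11.5 in responders. Of the markers of other types, 4 of 6 endothelial, 3 of 5 pericyte and smooth muscle, 5 of 5 T cell and 5 of 5 macrophage markers were higher, and 4 of 10 melanocyte and 4 of 4 cartilage and bone markers were lower. Of the remaining lists, 1 of 3 adipocyte and 1 of 3 B cell markers were higher, 2 of 5 keratinocyte and 1 of 2 Schwann cell markers were lower, and 0 of 6 skeletal muscle markers passed. Dcn and Lum are in the fibroblast list and among the fibril partners. The part of these cell types in the collagen differences was not tested.

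Responders were next set against tumours of mice given the control IgG. In responders 9 collagens were higher and 2 lower, where 15.3% of all genes were higher and 20.1% lower. The members that rose were 3 fibrillar, 1 basement membrane, 3 type 6, Col7a1 and Col23a1. Values of Col1a1 in IgG tumours had a lowest, median and highest of 7.52, 9.32 and 11.8 in study 2 and of 7.17, 9.19 and 10.3 in study 3, which overlapped those of responders. Col6a1 had the largest difference, 1.13 ± 0.33 or 2.19-fold (limma, adjusted p = 0.00806), followed by Col1a1 with 1.10 ± 0.40 (adjusted p = 0.0275) and Col6a2 with 1.08 ± 0.34 (adjusted p = 0.0132). Further rises were seen for Col5a3 (0.89, adjusted p = 0.0272), Col6a3 (0.83, adjusted p = 0.0301), Col5a1 (0.77, adjusted p = 0.0116), Col15a1 (0.58, adjusted p = 0.0290), Col23a1 (0.24, adjusted p = 0.0238) and Col7a1 (0.23, adjusted p = 0.0193). The 2 falls were those of the membrane-spanning Col13a1 (-0.20, adjusted p = 0.00994) and of Col19a1 (-0.13, adjusted p = 0.0244).

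Members that did not pass against IgG included Col1a2 with 0.85, Col3a1 with 0.48, Col5a2 with 0.53, Col4a2 with 0.48, Col4a1 with 0.32, Col18a1 with 0.29 and Col12a1 with 0.27. Col17a1 had -0.25, Col2a1 0.02, Col11a1 -0.06, Col8a1 0.05 and Col14a1 -0.01. The difference for Col3a1 was -0.16 in study 2 and 1.13 in study 3. In study 2 alone 0 collagens were higher and 6 lower (Col6a4, Col13a1, Col19a1, Col20a1, Col22a1 and Col25a1), with 10.9% of all genes higher and 16.5% lower. In study 3 alone 7 were higher and 1 lower, with 9.2% and 8.18% of all genes. Without the 5 tumours, 3 collagens were higher and 2 lower over both studies, with 10.4% and 11.1% of all genes, and Col1a1 (0.89), Col5a3 (0.65), Col6a3 (0.64) and Col15a1 (0.38) did not pass. Without study 3 responder replicate 4 alone, Col1a1 had 0.94 and the count was 5, with 11.8% and 14.6% of all genes. Centring each array on the median of its 18194 genes gave 7 higher and 10 lower, beside 11.3% and 39.9% of all genes, and centring on the median of all probe sets 10 and 2, beside 15.4% and 18.9%. Study 2 IgG replicate 7 stood above the other IgG tumours of that study, with a mean of 12.1 over the 6 fibrillar members above the dim level where the next had 10.7. Its endothelial, macrophage and skeletal muscle marker means were 8.61, 12.2 and 11.3, where the next highest of the group were 6.97, 11.02 and 10.8, and their part in the values was not tested. Without it, 11 collagens were higher and 5 lower, beside 17% and 22.9% of all genes, Col1a1 had 1.20 and the study 2 difference of Col3a1 was -0.04. Of the lists, 6 synthesis genes were higher and 1 lower, 2 and 1 of the processing genes, 3 and 0 of the fibril partners, 2 and 0 of the basement membrane partners and 3 and 1 of the receptors. Fibroblast markers were higher in 4 of 7, with a median of 0.84, and their part in the result was not tested.

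Averaged over the studies, non-responders and IgG tumours differed in 0 collagens in either direction by limma, with 0.0055% of all genes higher and 0% lower. In that test 4 collagens and 1101 genes had an unadjusted p under 0.05. The smallest adjusted p of a collagen was 0.518. The differences of Col1a1, Col1a2 and Col3a1 were -0.37, -0.45 and -0.46, and those of the 42 members lay between -0.46 and 0.16. Without study 2 IgG replicate 7, 0 collagens passed over both studies and Col1a1 had -0.27. By limma, the smallest adjusted p of a collagen was 0.999 in study 2 alone. In study 3 alone it was 0.0225, which passed. With the 5 tumours left out, none of them in these study 3 groups, 1 collagen was higher and 0 lower in study 3. Beside it, 1.4% of all genes were higher and 0.11% lower. These comparisons share the IgG or the non-responder tumours with those above. Control tumours given IgG or PBS differed in 0 collagens, with 0% of all genes higher and 0.0055% lower, and the smallest adjusted p was 0.642, with 1 collagen and 1185 genes at an unadjusted p under 0.05. In the 3 study 2 PBS tumours Col1a1 was 9.91, 9.12 and 8.51, and in the 4 study 3 PBS tumours it was 9.65, 8.34, 6.30 and 7.38. Study 3 PBS replicate 3 was lower than any IgG tumour of either study. The Col1a1 difference between IgG and PBS was 0.57 over both studies, 0.01 in study 2 and 1.12 in study 3. Without study 3 PBS replicate 2, the array with the large 3 prime to 5 prime difference, it was 0.64 over both studies and 1.26 in study 3. Without study 2 IgG replicate 7 it was 0.46 over both studies and -0.19 in study 2. In both cases 0 collagens passed, and the part of either array's features was not tested.

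Relapse tumours, which had shrunk and grown back, were compared with each of the other outcomes. In the 3 study 2 relapse tumours Col1a1 was 11.1, 8.93 and 12.1, and in the 3 study 3 relapse tumours it was 11.5, 9.91 and 10.6. All 3 relapse tumours of study 3 were above the highest non-responder of that study. In study 2, relapse replicates 1 and 2 lay within the range of the non-responders. Relapse replicate 3 was above their highest value, 11.7 in non-responder replicate 14. Against non-responders in study 2 alone no collagen passed, with a smallest adjusted p of 0.621 by limma. In study 3 alone the smallest was 0.0165. Averaged over the studies, 8 collagens were higher and 4 lower in relapse tumours than in non-responders, beside 9.96% and 14.1% of all genes. The rises were Col1a1 (1.93 ± 0.62 or 3.82-fold, limma, adjusted p = 0.0254), Col6a2 (1.72, adjusted p = 0.0221), Col1a2 (1.68, adjusted p = 0.0290), Col6a1 (1.48, adjusted p = 0.0343), Col5a3 (1.48, adjusted p = 0.0313), Col6a3 (1.29, adjusted p = 0.0414), Col5a1 (1.24, adjusted p = 0.0200) and Col16a1 (0.68, adjusted p = 0.0232). Col3a1 had 1.31 and Col5a2 1.02, and neither passed, and 0 of the 8 basement membrane members passed, with Col4a1 at 0.63, Col4a2 at 0.73, Col15a1 at 0.66 and Col18a1 at 0.51.

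The falls in relapse tumours were those of Col22a1 (-0.29, adjusted p = 0.00757), Col2a1 (-0.28, adjusted p = 0.0124), Col20a1 (-0.25, adjusted p = 0.0336) and Col25a1 (-0.24, adjusted p = 0.0218). Other members named in every comparison did not pass: Col8a1 (0.55), Col12a1 (0.62), Col14a1 (0.19), Col7a1 (-0.08), Col17a1 (-0.26) and Col11a1 (0.03). The rises rest on few tumours: leaving out either of replicates 1 and 3 in study 2, or of replicates 1 and 3 in study 3, left 0 members higher and 2 lower, with Col1a1 between 1.58 and 1.95. Shares of all genes in those fits are not given, so the loss is not shown to be particular to collagens. With the 5 tumours left out, 11 members were higher and 6 lower, beside 17.9% and 23.4% of all genes. Of the lists, 3 of 19 synthesis genes, 4 of 12 processing genes, 7 of 16 fibril partners, 5 of 13 basement membrane partners and 2 of 10 receptors were higher, with 0, 1, 0, 0 and 1 lower, and 4 of 7 fibroblast markers were higher (median 1.59), whose part in the result was not tested.

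Against responders, relapse tumours differed in 0 collagens, beside 0% of all genes in either direction. Here 2 collagens and 962 genes had an unadjusted p under 0.05 by limma, and the smallest adjusted p of a member was 0.847. The Col1a1 difference was 0.47, and those of the 42 members lay between -0.22 and 0.47. Against IgG tumours 0 collagens passed, beside 0.385% of all genes higher and 0.704% lower, with differences of 1.56 for Col1a1 and 1.44 for Col6a2. By limma, 13 collagens had an unadjusted p under 0.05 in that comparison, and the smallest adjusted p was 0.0582. Without study 2 IgG replicate 7, 1 collagen was higher (Col5a1) and 1 lower (Col22a1), beside 3.31% and 2.96% of all genes, with Col1a1 at 1.66. None of the 5 tumours low in melanocyte markers is in these groups. Leaving them out kept every difference and changed only the variance estimated over all groups. It gave 5 higher and 2 lower, beside 8.3% and 5.84% of all genes.

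Stabilization tumours were present in study 3 only. Their Col1a1 values were 13.1, 12.2 and 9.76, so that replicates 1 and 2 were above the highest non-responder of study 3 (9.82) and replicate 3 was within the range of that group. Col6a2 was 13.2, 11.9 and 9.14 and Col18a1 was 10.5, 8.99 and 7.61, in the same order of replicates. Replicates 1 and 2 are also those low in melanocyte markers. Against study 3 non-responders, 18 collagens were higher and 5 lower, where 13.3% of all genes were higher and 18% lower. The largest rises were those of Col5a3 (2.80 ± 0.73 or 6.97-fold, limma, adjusted p = 0.00401), Col1a1 (2.79 ± 0.89, adjusted p = 0.0149), Col6a2 (2.71, adjusted p = 0.00715), Col6a1 (2.66, adjusted p = 0.00664) and Col12a1 (2.39, adjusted p = 0.00982). The falls were Col4a5 (-1.02 or 2.03-fold lower, adjusted p = 0.00833), Col17a1 (-0.79, adjusted p = 0.00977), Col4a6 (-0.40), Col11a2 (-0.38) and Col9a1 (-0.36).

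The other rises in stabilization tumours were Col6a3 (2.28), Col5a1 (2.16), Col1a2 (2.10), Col5a2 (1.94), Col18a1 (1.66), Col4a2 (1.58), Col15a1 (1.47), Col4a1 (1.37), Col14a1 (1.17), Col16a1 (0.99), Col24a1 (0.89), Col27a1 (0.68) and Col23a1 (0.59). Col3a1 (1.36), Col8a1 (1.41), Col7a1 (0.17), Col2a1 (-0.23) and Col11a1 (-0.12) did not pass. The 5 tumours low in melanocyte markers include 2 stabilization replicates. Without the 5, the Col1a1 difference was 0.85 ± 1.32, with the remaining stabilization tumour assumed to vary like the other groups. The median difference was then -0.003 over the family and 0.71 over the fibrillar members above the dim level. A single tumour has no spread of its own, so this fit cannot decide which of the rises and falls hold without the 5. Leaving out stabilization replicate 1 alone gave 0 members past the threshold, replicate 2 alone 9 and replicate 3 alone 23. Shares of all genes in these fits are not given, so the changes are not shown to be particular to collagens. In the same contrast 9 synthesis genes were higher and 1 lower, 7 and 1 of the processing genes, 9 and 0 of the fibril partners, 7 and 0 of the basement membrane partners and 5 and 0 of the receptors. Fibroblast markers were higher in 5 of 7, endothelial markers in 5 of 6, and melanocyte markers lower in 8 of 10, and their part in the result was not tested. Against study 3 responders 0 collagens passed, beside 0.0769% of all genes higher and 0.033% lower. In that contrast the differences were 1.89 for Col12a1, 1.23 for Col1a1 and 1.03 for Col18a1, the smallest adjusted p was 0.392, for Col27a1, and 5 collagens and 1420 genes had an unadjusted p under 0.05 by limma.

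The 2 growth delay tumours of study 2 had Col1a1 values of 7.73 and 10.3, both within the IgG range of that study. Against IgG, 0 collagens and 0% of all genes passed in either direction, and 2 collagens and 989 genes had an unadjusted p under 0.05 by limma. The smallest adjusted p of a collagen was 0.862, with Col3a1 at -0.95 and Col1a1 at -0.15. Without study 2 IgG replicate 7 these were -0.83 and 0.05, and 0 collagens passed.

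**Figure D4:**
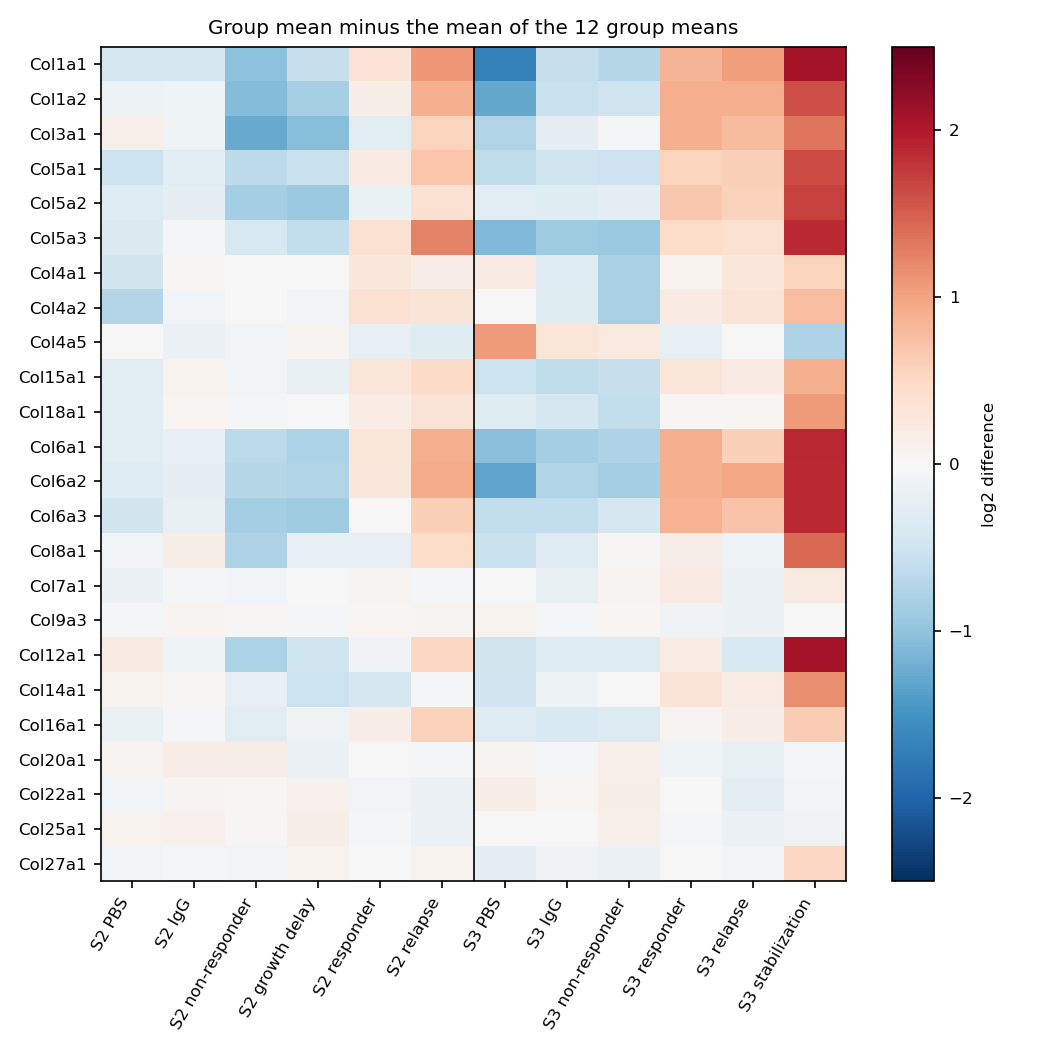
Group mean of each of the 24 collagens that are not dim (rows of the map) in the 12 groups (columns, S2 for study 2 and S3 for study 3), as the log2 difference from the mean of the 12 group means. For 19 of the 24 the highest mean is that of study 3 stabilization, while Col4a5 is lowest there.

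Set side by side over the 12 groups, the mean of the 6 fibrillar members above the dim level was lowest in study 3 PBS (9.11) and study 2 non-responder tumours (9.18). It was 9.30 in growth delay, 9.55 in study 3 IgG, 9.58 in study 3 non-responder, 9.79 in study 2 PBS and 9.86 in study 2 IgG tumours. Higher means were found in study 2 responders (10.2), study 3 responders (10.8), study 3 relapse (10.8), study 2 relapse (10.9) and stabilization tumours (11.8). Neighbours in this order did not differ beyond the spread of their tumours: study 2 responders, for example, ranged from 8.14 to 12.8. The 5 basement membrane members above the dim level had group means from 7.83 in study 3 non-responders to 8.84 in stabilization tumours. The group mean was highest in stabilization tumours for 21 of the 42 members, and for 19 of the 24 members above the dim level. Col4a5 was an exception, with its highest group mean in study 3 PBS (8.57) and its lowest in stabilization tumours (6.73). Without the 5 tumours low in melanocyte markers, the fibrillar mean was 10.3 in the 1 remaining stabilization tumour and 10.5 in the remaining study 3 responders, below both relapse groups, and study 2 non-responders then had the lowest mean. The group mean was then highest in the stabilization tumour for 2 of the 42 members, both above the dim level, and in study 2 relapse for 10. This order is a description.

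Within groups, the fibrillar and type 6 members had large spreads. The pooled standard deviation of Col1a1 between tumours of a group was 1.36 on the log2 scale, above 99.8% of all genes, whose median was 0.235. Col1a2 (1.23), Col6a2 (1.18), Col3a1 (1.15) and Col6a1 (1.14) followed. At the other end, the dim Col6a5 had 0.136, above 4.13% of genes.

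To see which members varied together, each value was taken as the deviation from its group mean over the 90 tumours and correlated with that of Col1a1, with labels permuted within groups 100000 times and p-values adjusted over the 41 relations. For 22 members the correlation was positive and for 5 negative at an adjusted p under 0.05, and by Spearman's rho for 21 and 2. All genes had a median r of -0.13 with Col1a1. An r over 0.5 was found for 46.3% of the members and 10.9% of all genes. The smallest positive r that passed, 0.259, was reached by 24.1% of all genes, and the negative r nearest to 0 that passed, -0.284, was reached or passed downwards by 34.3%, against 12.2% of the members. Col6a2 was the most alike, with Pearson's r of 0.955 and Spearman's rho of 0.960 (permutation p = 1e-05, the smallest possible). Its r was 0.947 without the 2 tumours farthest from the median of Col1a1, 0.960 in study 2, 0.952 in study 3 and 0.951 without the 5 tumours low in melanocyte markers. Col1a2 (r = 0.952), Col6a1 (0.952), Col6a3 (0.947), Col5a2 (0.940), Col5a3 (0.910), Col5a1 (0.902), Col3a1 (0.855), Col12a1 (0.845) and Col15a1 (0.840) came next. Lower values were found for Col18a1 (0.797), Col4a1 (0.740), Col4a2 (0.714), Col8a1 (0.657) and Col14a1 (0.423). Negative correlations were those of Col10a1 (-0.547, though -0.685 in study 2 and -0.199 in study 3), Col4a5 (-0.393), Col9a2 (-0.341), Col17a1 (-0.288) and Col25a1 (-0.284). By rank, Col4a5 (rho -0.231, adjusted p = 0.067), Col9a2 (-0.221, adjusted p = 0.0692) and Col17a1 (-0.240, adjusted p = 0.0574) did not pass the permutation test. Leaving out the 5 tumours, r was -0.468 for Col10a1, -0.319 for Col9a2, -0.243 for Col4a5, -0.209 for Col25a1 and -0.190 for Col17a1. Without the 2 tumours farthest from the median of Col1a1, Col4a5 had -0.258. All values of a tumour come from 1 array and share its normalization.

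Chains that assemble into one trimer were compared in 7 pairs. Col4a1 and Col4a2 had the closest relation, with r of 0.984 and rho of 0.981 over 90 tumours (permutation, adjusted p = 1.4e-05), 0.984 in study 2 and 0.985 in study 3. The RefSeq annotation places their start sites head to head on chromosome 8, on opposite strands, with 22 bases of overlap. Correlations were 0.974 for Col6a1 and Col6a2, 0.952 for Col1a1 and Col1a2, 0.916 for Col5a1 and Col5a2 and 0.739 for Col8a1 and Col8a2. Col4a5 and Col4a6, also head to head, on chromosome X with 1342 bases between their starts, had r of 0.098 (adjusted p = 0.476), with 0.348 in study 2 and -0.187 in study 3. Col4a3 and Col4a4 had r of -0.011 (adjusted p = 0.933). Col4a3, Col4a4 and Col4a6 were dim.

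**Figure D5:**
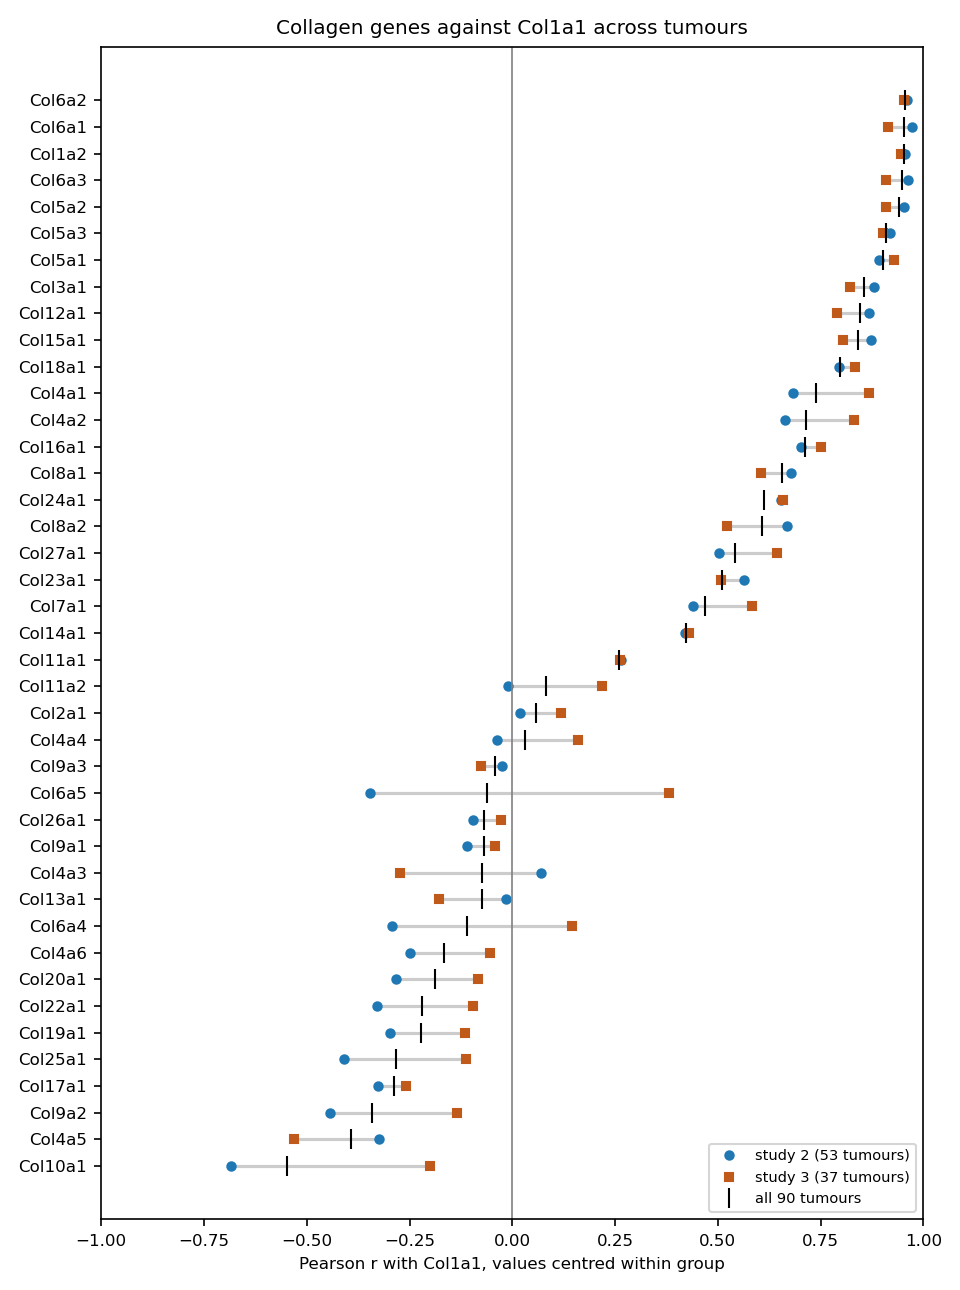
Pearson's r of each collagen with Col1a1 (x axis), from values centred on their group means, in study 2 (circles, 53 tumours), study 3 (squares, 37 tumours) and all 90 tumours (ticks). The ticks run from 0.955 for Col6a2 to -0.547 for Col10a1, and the studies lie far apart for several dim members such as Col6a5.

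The same deviations were correlated with the means of 4 marker lists (168 relations). With fibroblast markers, r was 0.923 for Col6a1, 0.920 for Col5a2, 0.914 for Col6a3 and 0.890 for Col1a1 (permutation, adjusted p = 2.4e-05 for each). With endothelial markers it was 0.921 for Col18a1 and 0.897 for Col15a1. Type 6 and type 5 members came close, with r of 0.890 for Col6a3, 0.889 for Col5a3 and 0.882 for Col5a1. For Col5a3 and Col5a1 r was lower with fibroblast markers, at 0.837 and 0.810. With pericyte and smooth muscle markers it was 0.886 for Col6a1, 0.884 for Col18a1, 0.879 for Col6a2 and 0.877 for Col15a1. Melanocyte markers had a negative r with 19 of the 42 members at an adjusted p under 0.05 and a positive one with 4. These counts include the 5 tumours low in those markers. Shares of all genes are not given for the marker means, so the counts are not shown to be particular to collagens. The positive ones included Col4a5 (0.610, and 0.230 without the 5 tumours low in those markers) and Col17a1 (0.421), and the lowest r was that of Col23a1 (-0.782, and -0.181 without the 5 tumours).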

How the data were processed

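The deposited values are log2 expression values made by the authors with RMA, a method that normalizes arrays and summarises probes, and tested by them with limma, per the submitters' processing notes; no version is given there. Per the labels, 800 ng of RNA was amplified and hybridised per array. The sources used here do not say whether the studies went through RMA together or apart. Of 45101 probe sets, 34958 name 1 gene symbol and were used, and 932 with several symbols and 9211 unnamed ones were left out. The symbols are those of the array's annotation. Precision is limited by the number of arrays, which hold no counts.

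All 90 arrays were fitted with limma 3.58.1 (R 4.3.3, lmFit and eBayes), with 1 mean per study and outcome, 12 in all. Contrasts were averaged over the studies with equal weights. Tests were 2-sided with Benjamini-Hochberg adjustment over 18194 genes and a threshold of 0.05. Correlations, group summaries and figures used Python 3.11.15, numpy 2.4.6, pandas 2.3.3, scipy 1.17.1 and matplotlib 3.10.9. Fits and correlations were tested on simulated data.

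Members and lists were chosen with earlier results of these data known. Named were the 12 largest differences past the threshold between responders and non-responders and between responders and IgG tumours, 18 set members in the comparisons, the 5 largest rises and falls elsewhere, and the 4 genes of each list with the smallest p. Other members were named after their values were seen, to account for the whole family, and values of set members that did not pass are given by their range in some comparisons. The alternatives left out dim genes, took a prior variance with a trend, weighted the arrays, used the mean of a gene's probe sets, centred arrays on the median of their 18194 genes, normalized by quantiles in each study, added the 3 prime to 5 prime difference of control probe sets as a covariate, fitted the compared groups alone or set the threshold at 0.01. Others left out the 5 tumours low in melanocyte markers, or every tumour in turn for groups of 2 to 5. Leaving out study 3 responder replicates 3 and 4, study 2 non-responder replicate 14 and study 2 IgG replicate 7, each alone, and centring on the median of all probe sets were chosen after seeing the data.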

Additional observations from a re-analysis of the deposited data

Results flagged for a closer look

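In 72 pairs of a member and a group of 4 to 10 tumours, 9 held a tumour far from the rest by Dixon's criterion, which chance gives in about 1 of 20 such pairs. Of these 9, 7 concern 1 tumour, study 3 responder replicate 4. Its log2 values were 12.0 for Col5a1 (next highest 10.1), 13.1 for Col6a3 (11.004), 10.7 for Col15a1 (8.25), 10.0 for Col18a1 (8.57), 10.6 for Col12a1 (7.90), 7.55 for Col7a1 (6.30) and 7.22 for the cartilage-associated Col11a1 (5.45). The same tumour had a skeletal muscle marker mean of 13.6, a fibroblast marker mean of 11.5 and a melanocyte marker mean of 6.65, whose part in these values was not tested.

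Study 3 non-responder replicate 6 was low for Col3a1, at 10.8 where the next tumour had 12.2. Study 3 PBS replicate 2 stood apart for the dim Col11a1, at 5.41, beside a nearest value of 5.31. This array also had the largest 3 prime to 5 prime difference of control probe sets (5.20, others at most 0.935), whose part in the value was not tested.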

How the results depend on the processing

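Of 208 counts under an alternative, 172 stayed within 1.5 times the value given above, 18 were larger and 18 smaller, and of 996 values of named members, 775 stayed on their side of the threshold, 221 no longer passed and 0 changed sign. The counts of members that passed with array weights were 20 (responders against non-responders, study 2), 24 (relapse against non-responders), 18 (relapse against IgG), 17 (stabilization against responders) and 2 (IgG against PBS). Centred on the median of the 18194 genes they were 8 (responders against non-responders, study 2), 26 (study 3), 17 (responders against IgG), 20 (relapse against non-responders) and 7 (relapse against IgG). The mean of all probe sets gave 2 in study 2, quantile normalization 6 for relapse against non-responders, the 3 prime to 5 prime covariate 1 and fitting only the compared groups 9 for relapse against IgG. At a threshold of 0.01 the counts were 12 (responders against non-responders), 2 (study 3), 2 (responders against IgG), 1 (relapse against non-responders) and 11 (stabilization against non-responders). Without the 5 tumours low in melanocyte markers they were 13 (responders against non-responders, study 2), 1 (study 3) and 5 (responders against IgG). They were 7 for relapse against IgG, whose groups hold none of the 5. Single tumours were also left out. In groups of more than 5 tumours, only those chosen after seeing the data were left out, not each in turn. For responders against non-responders these gave 19 to 26. They gave 8 in study 2 (1 tumour) and 7 in study 3 (either of 2 tumours). For responders against IgG they gave 5 to 16. The other tumours of those groups are not covered by these ranges. Every relapse and stabilization tumour was left out in turn as well. The counts were 2 to 16 for relapse against non-responders and 0 to 2 for relapse against IgG. They were 0 to 23 for stabilization against non-responders and 0 to 5 for stabilization against responders. Shares of all genes are given above for some of these settings only, so these counts alone show nothing particular to collagens. The cause of the changes in the counts was not tested. The count of members correlated with Col1a1 was 27, and 22 to 28 under the alternatives. No paired analysis was possible because every tumour has its own animal number. Members called dim lay below the median of all probe sets, which says nothing of their distance from background.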
